A study of Mus musculus with 15 samples.

Results

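The genes described here are the 37 aminoacyl tRNA synthetase genes and synthetase scaffold genes of the mouse that were taken from the count table by gene symbol, through the Ensembl identifier of each table entry. Of these, 21 act in the cytosol and 16, whose symbols end in 2 (other than Aimp2), act in the mitochondrion. The table lists 57186 genes, 19839 genes had enough counts to be tested, and all 37 members were among them. The lowest count of any member in any library was 271, for Pars2.

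Aminoacyl tRNA synthetases join each amino acid to its own tRNA, so that the ribosome can read the code. Most amino acids have one enzyme for the cytosol and another, encoded by a separate nuclear gene, for the mitochondrion, while the enzymes for glycine (Gars1) and lysine (Kars1) serve both compartments from a single gene. Several cytosolic enzymes are held together with the scaffolds Aimp1 and Aimp2 in the multisynthetase complex. In mammalian cells many cytosolic synthetase genes are known targets of Atf4, the transcription factor that is translated when initiation factor eIF2 is phosphorylated or when amino acids run short.

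RNA-seq was performed on RAW 264.7 cells, a mouse macrophage cell line, after 6 h with silica nanoparticles (SNPs) at doses the study describes as nontoxic. The nonporous particles were SNP100 (100 nm, 50 µg/mL) and SNP50 (50 nm, 25 µg/mL), the mesoporous particles were MSNP (100 nm, 200 µg/mL), and the hollow mesoporous particles were HMSNP (100 nm, 200 µg/mL). Nontreated cells at 6 h were the controls, and each of the 5 groups had 3 libraries. All groups were the same cell line, so the values describe 1 line, and only MSNP and HMSNP were matched in both dose and nominal size. The library names carry a different number for each group, whose meaning the labels do not give, so that whatever it stands for and the treatment cannot be told apart. The labels give replicates as numbers alone, so the p-values measure the spread between these libraries, which may be technical. In bulk RNA, fewer cells that express a gene and less of its RNA per cell cannot be told apart.

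Each library held between 29369934 and 42617812 counts on genes. The macrophage markers Lyz2 and Csf1r reached 578971 and 129669 counts in 1 library, whereas no marker of T cells, B cells, fibroblasts or epithelial cells exceeded 5 counts. The nontreated libraries differed more among themselves than treated libraries did, with a mean chi-square per gene of 66.2 to 205 between pairs of controls against at most 13.9 between pairs within a treated group. The controls also differed by transcript length. For Control replicate 3 the median log2 deviation of genes from the control mean was 0.45 in the shortest of 10 bins of transcript length and -0.56 in the longest. Control replicate 2 deviated the other way (-0.27 and 0.41), as did Control replicate 1 to a smaller degree (-0.18 and 0.12). The main counts of called members are therefore also given without this library.

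The promoters of the members were searched for the C/EBP-ATF response element (CARE), through which Atf4 and its partners bind DNA, spelled TGATGNAA and read on both strands. The promoter was taken as 250 bases before to 50 bases after the start of the canonical GENCODE transcript on GRCm39. The element was present in 5 of 21 cytosolic promoters (23.8%), in 0 of 16 mitochondrial promoters and in 836 of 21757 promoters of all protein-coding genes (3.84%). A match from each of these genes is shown because the genes that hold them return in the MSNP and HMSNP results. Each line reads along the strand of the gene, and the capitals mark the element, which in every line lay in the reverse orientation.

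Aars1, chr8:111760472-111760501, forward strand: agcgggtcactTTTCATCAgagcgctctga
Cars1, chr7:143153782-143153811, reverse strand: cggcgccgcggTTGCATCAgattctggaag
Gars1, chr6:55014945-55014974, forward strand: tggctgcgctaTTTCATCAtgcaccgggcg
Iars1, chr13:49835602-49835625, forward strand: cactgtcagtaTTGCATCAcctcc
Tars1, chr15:11399741-11399770, reverse strand: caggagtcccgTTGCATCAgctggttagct

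The E-box CACGTG, which Myc and related factors bind, was found in 4 of 21 cytosolic promoters, in 0 of 16 mitochondrial promoters and in 7.82% of all promoters. The site of NRF1, a regulator of nuclear genes for mitochondrial proteins, 10 letters long, was found in 3 of 21 cytosolic, 3 of 16 mitochondrial and 5.81% of all promoters. The mitochondrial genes with this site were Iars2, Mars2 and Pars2, and the line below shows that of Mars2, whose level is described further on.

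Mars2, chr1:55276327-55276356, forward strand: accgtccagctGCGCACGCGCcctttcccg

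A match describes the letters of these windows and is not evidence that a factor binds there.

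The cytosolic members were present at far higher levels than the mitochondrial ones. Per kilobase of canonical transcript, the median level of the nontreated controls was 63.4 CPM (counts scaled to the library total) over the 21 cytosolic members and 6.21 CPM over the 15 mitochondrial members other than Lars2, which is described separately. The highest levels per kilobase were those of Nars1 (165 CPM) among cytosolic members and Tars2 (35.3 CPM) among mitochondrial members. The lowest were those of Cars1 (16.6 CPM) and Mars2 (1.64 CPM), and the canonical transcript of Mars2 is 11294 bases long. Here and below, CPM uses library sizes scaled by TMM.

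The level of each class was also summed over its members. The summed cytosolic level was 4531, 4836 and 4414 CPM in the nontreated controls. It was 4526, 4432 and 4576 CPM in the SNP100-treated group and 4576, 4498 and 4389 CPM in the SNP50-treated group. It was 6004, 5824 and 5757 CPM in the MSNP-treated group and 3761, 3886 and 3788 CPM in the HMSNP-treated group. All MSNP-treated libraries thus lay above every other library, all HMSNP-treated libraries lay below every other library, and the nonporous groups overlapped the controls. The mitochondrial sum without Lars2 lay between 451 and 503 CPM in all 15 libraries.

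**Figure D1:**
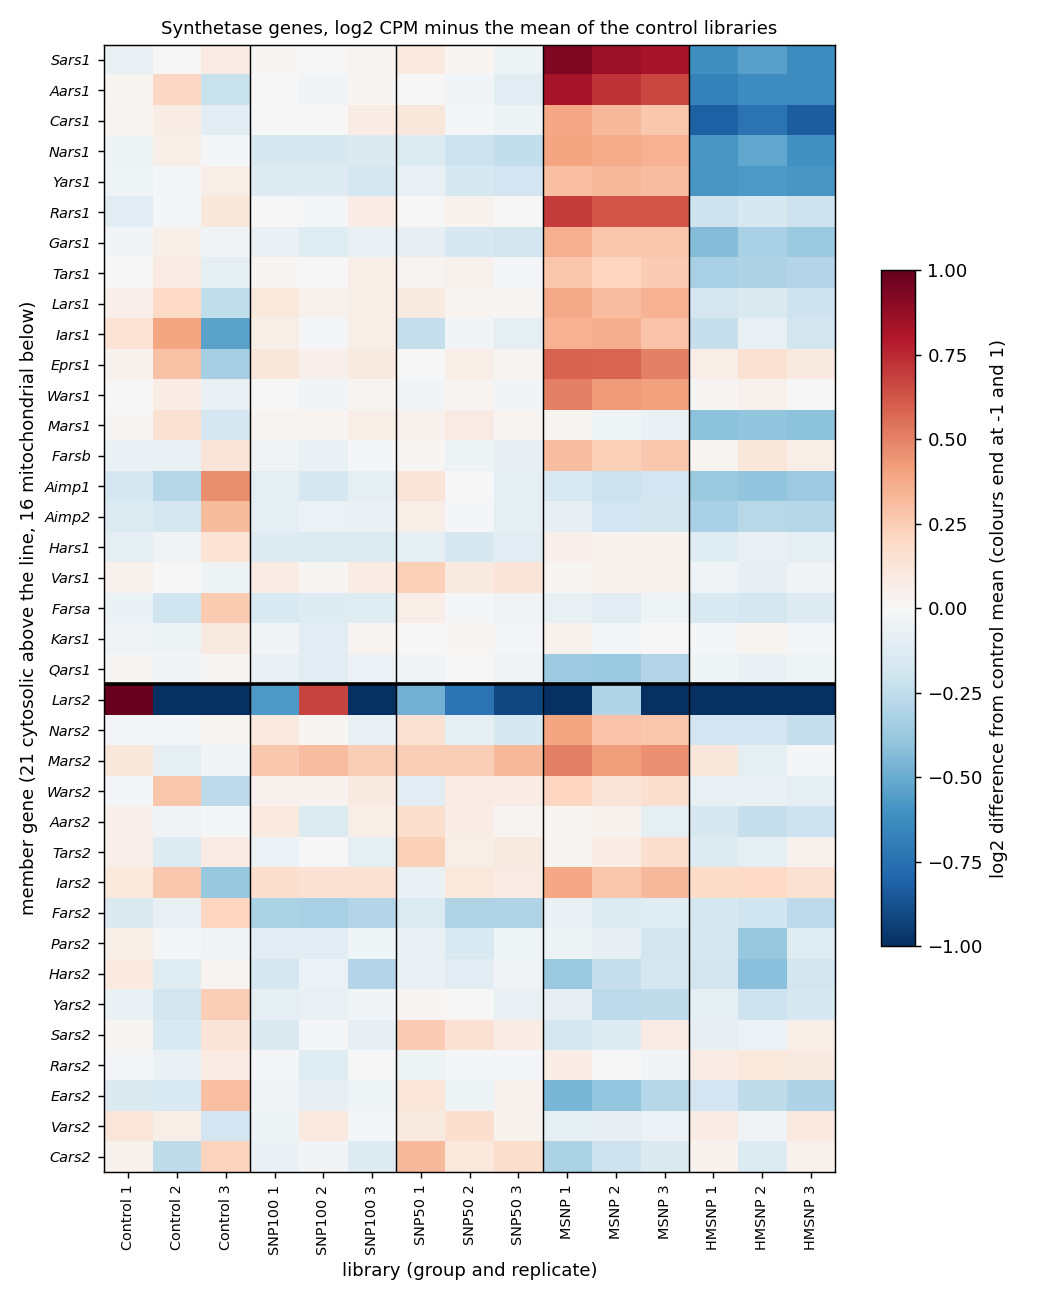
Difference in log2 CPM of each member (vertical axis) from the mean of the control libraries in each of the 15 libraries (horizontal axis), with red above and blue below that mean and the colour scale ending at -1 and 1. Most cytosolic genes at the top are red in the 3 MSNP-treated libraries, and many of these are blue in the 3 HMSNP-treated libraries, whereas fewer mitochondrial genes are strongly coloured, and Lars2 is high in Control replicate 1.

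To ask whether the nonporous particles changed these genes, the SNP100- and SNP50-treated groups were compared with the nontreated controls. No member was called in either comparison by edgeR's quasi-likelihood test at a Benjamini-Hochberg adjusted p under 0.05. Of all genes tested, 0.509% were called higher and 0.403% lower in the SNP100-treated group, and 0.454% higher and 0.958% lower in the SNP50-treated group. At an unadjusted p under 0.05, 3 cytosolic and 2 mitochondrial members passed for SNP100, and 4 and 3 passed for SNP50. The share of all genes at that unadjusted threshold was not computed, here or below, so these counts cannot be set against it.

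The fitted log2 fold changes were small in both groups. Those of the cytosolic members lay between -0.16 and 0.06 for SNP100 and between -0.20 and 0.15 for SNP50. Those of the mitochondrial members without Lars2 lay between -0.32 and 0.27 for SNP100 and between -0.26 and 0.27 for SNP50. The median over the cytosolic class was -0.01 in both, against -0.02 and 0 for all genes. DESeq2 called Yars1 and Fars2 lower and Mars2 higher for SNP100, and Nars1 and Yars1 lower and Mars2 higher for SNP50. Of all genes, it called 1.25% higher and 1.26% lower for SNP100, and 1.26% and 2.17% for SNP50. Without Control replicate 3, edgeR called Nars1 lower and Mars2 higher for SNP100, and 3 members higher and 4 lower for SNP50. Of all genes, 2.84% were then called higher and 2.32% lower for SNP100, and 9.63% and 9.30% for SNP50. The nonporous groups also did not separate from each other, with 0 members and 0% of all genes called in either direction between SNP50 and SNP100 by edgeR, 0 members by DESeq2, and 0 cytosolic and 3 mitochondrial members at an unadjusted p under 0.05.

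In the MSNP-treated group, 12 of 21 cytosolic members rose and 1 fell against the nontreated controls, while 11.8% of all genes tested were called higher and 11.0% lower. The median log2 fold change of the class was 0.28, against -0.05 for all genes. With the offset against transcript length, described below for Mars2, it was 0.19, against -0.02 for all genes. The genes that rose were Aars1, Cars1, Eprs1, Farsb, Gars1, Lars1, Nars1, Rars1, Sars1, Tars1, Wars1 and Yars1, and in each of them all MSNP-treated libraries lay above all controls, as they did in 17.0% of all genes tested. The counts without Control replicate 3 were 13 higher and 1 lower, beside 16.3% and 13.2% of all genes. When only the 6 libraries of the comparison were fitted, they were 5 higher (Aars1, Nars1, Rars1, Sars1 and Wars1) and 1 lower. The class median was 0.28, and of all genes 7.37% were then higher and 5.61% lower.

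Sars1 (ENSMUSG00000068739, chromosome 3, 108332181 to 108352701, reverse strand, GRCm39), which charges serine tRNA, showed the largest change of the class. Its level was 342, 359 and 382 CPM in the nontreated controls and 687, 651 and 638 CPM in the MSNP-treated libraries. It was 363, 362 and 368 CPM with SNP100, 386, 365 and 348 CPM with SNP50, and 236, 248 and 234 CPM with HMSNP. The MSNP and HMSNP groups each stood clear of all other libraries, on opposite sides. The log2 fold change was 0.87 ± 0.0622 (SE) in the MSNP-treated group, at 3 libraries per group. Its adjusted p was 5.92e-08 by edgeR's quasi-likelihood test. Here and below, the SE and p of this fit rest on a spread per gene shared by all 15 libraries. The controls differed more among themselves, so their own spread can be wider than an SE shows.

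Aars1 (ENSMUSG00000031960, chromosome 8, 111754391 to 111784296, forward strand), the alanine enzyme, was at 314, 358 and 266 CPM in the controls and at 549, 513 and 494 CPM with MSNP. It was at 309, 305 and 315 CPM with SNP100, at 310.1, 305 and 289 CPM with SNP50, and at 194, 202 and 200.4 CPM with HMSNP. Again the MSNP values were all above and the HMSNP values all below the controls, whose own values were widely spread. Its log2 fold change with MSNP was 0.73 ± 0.0864 (edgeR adjusted p = 1.28e-05).

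Rars1 (ENSMUSG00000018848, chromosome 11, 35699207 to 35725375, reverse strand), which charges arginine tRNA and belongs to the multisynthetase complex, was at 231, 246 and 269 CPM in the controls and at 402, 384 and 384 CPM with MSNP. The SNP100 values were 247, 246 and 261 CPM, the SNP50 values 248, 254 and 249 CPM, and the HMSNP values 215, 222 and 215 CPM. Only the MSNP libraries left the range of the controls upwards, and the HMSNP libraries lay just below it. The log2 fold change with MSNP was 0.65 ± 0.0614 (edgeR adjusted p = 1.22e-06).

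Eprs1 (ENSMUSG00000026615, chromosome 1, 185095101 to 185161840, forward strand) encodes the joined glutamate and proline enzymes. It was at 357, 426 and 276 CPM in the controls and at 522, 521 and 494 CPM with MSNP, an increase of 0.54 ± 0.108 on the log2 scale (edgeR adjusted p = 0.00183). With SNP100 it was at 376, 359.6 and 369 CPM, with SNP50 at 348, 364 and 354 CPM, and with HMSNP at 364, 386 and 369 CPM, all within the spread of the controls. Wars1 (ENSMUSG00000021266, chromosome 12, 108825955 to 108860188, reverse strand), the tryptophan enzyme, followed the same pattern.

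Wars1 was at 130.1, 137 and 124 CPM in the controls and at 185, 175 and 173 CPM with MSNP, a log2 fold change of 0.44 ± 0.0577 (edgeR adjusted p = 3.27e-05). In the other groups it was at 130.1, 128 and 133 CPM with SNP100, at 128, 133 and 128 CPM with SNP50, and at 131, 134 and 130.3 CPM with HMSNP. Eprs1 and Wars1 thus rose with MSNP, while the other 3 treated groups overlapped the controls for both genes.

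The single cytosolic decrease was that of Qars1 (ENSMUSG00000032604), the glutamine enzyme, which is named because it was the lone call in that direction, after its values were seen. It was at 153, 149 and 153 CPM in the controls and at 118, 117 and 124 CPM with MSNP, a log2 fold change of -0.34 ± 0.0520 (edgeR adjusted p = 0.000176). In the other treated libraries it lay between 141 and 151 CPM. The 8 cytosolic members that were not called had log2 fold changes from -0.22 to 0.28. They included Kars1 (0.01 ± 0.0587), Mars1 (-0.03 ± 0.0714) and both scaffolds, Aimp1 (-0.22 ± 0.141) and Aimp2 (-0.17 ± 0.103). Iars1 had a fitted change of 0.28 ± 0.157, and its control values of 311, 372 and 195 CPM overlapped the MSNP values of 359, 363 and 345 CPM. The Mars1 locus overlaps Ddit3 on the opposite strand, and 31 of the 37 members overlap some other annotated gene. Whether reads were counted by strand is not given in the sources used here, so reads of such overlaps cannot be told apart.

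**Figure D2:**
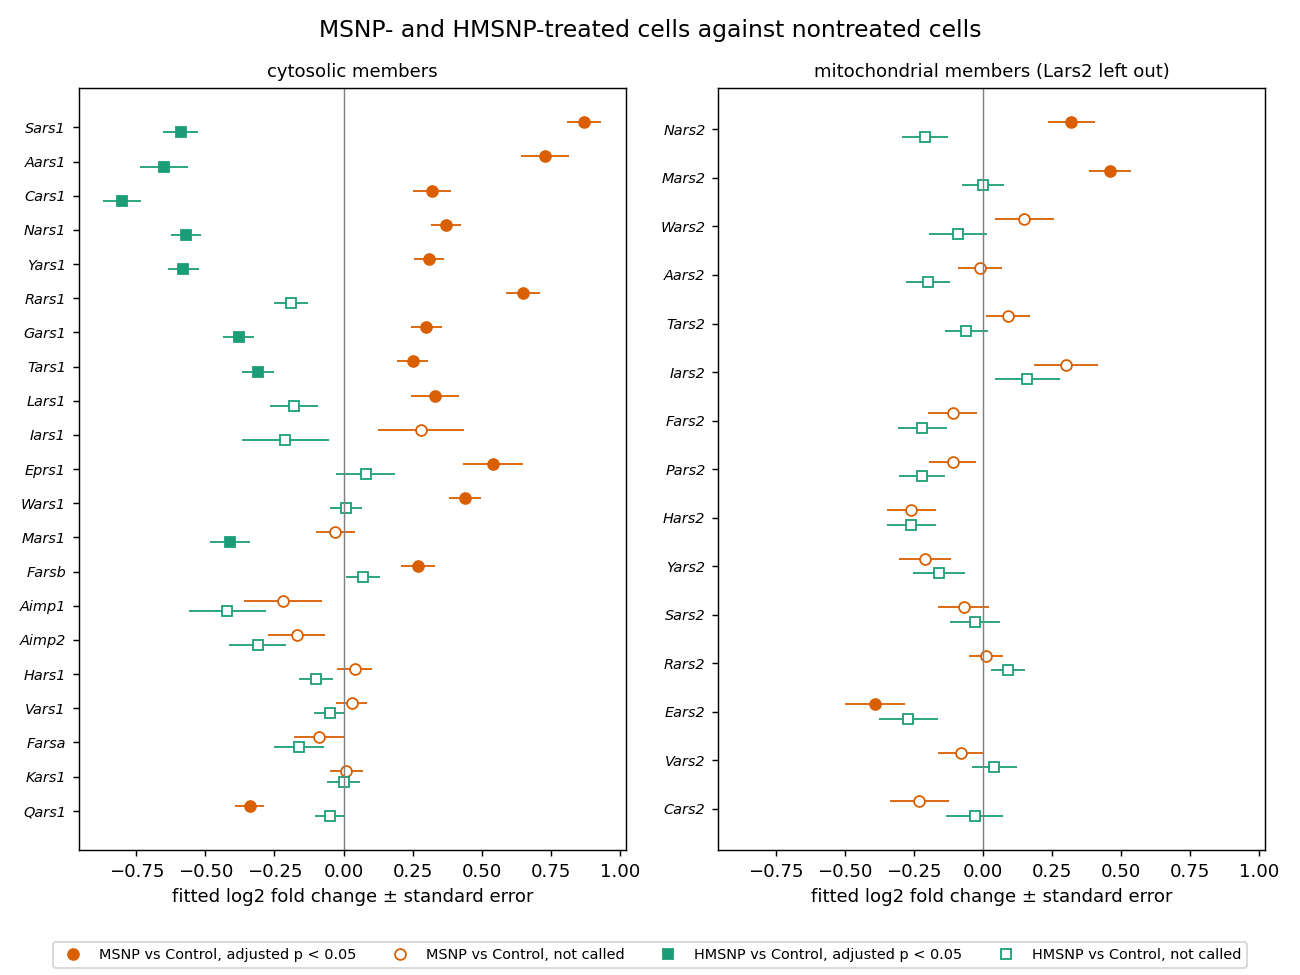
Fitted log2 fold change with its standard error (horizontal axis) for each member (vertical axis) in the MSNP-treated group (orange circles) and the HMSNP-treated group (green squares) against the nontreated controls, with cytosolic members on the left, mitochondrial members without Lars2 on the right, and filled symbols for an adjusted p under 0.05. On the left the filled circles lie from 0.25 to 0.87 apart from Qars1 at -0.34 and the filled squares from -0.80 to -0.31, whereas on the right 3 circles and no squares are filled.

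In the HMSNP-treated group, at the same dose and nominal size, 8 of 21 cytosolic members fell and none rose against the nontreated controls, while 2.70% of all genes were called lower and 2.46% higher. The median log2 fold change of the class was -0.21, against -0.04 for all genes. The genes that fell were Aars1, Cars1, Gars1, Mars1, Nars1, Sars1, Tars1 and Yars1. In 12 of 21 cytosolic members all HMSNP-treated libraries lay below all controls, as they did in 12.0% of all genes, and in the other 9 the groups overlapped. Leaving out Control replicate 3 gave 10 members lower and 0 higher, beside 4.20% and 4.47% of all genes. When the 6 libraries of the comparison were fitted alone, Cars1 was the single member still called, with a class median of -0.21. Of all genes, 0.342% were then lower and 0.0970% higher.

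Cars1 (ENSMUSG00000010755, chromosome 7, 143107440 to 143153828, reverse strand), the cysteine enzyme, showed the largest decrease. It was at 114, 118 and 104 CPM in the controls and at 63.4, 67.2 and 63.1 CPM with HMSNP. It was at 112, 112 and 118 CPM with SNP100, at 121, 111 and 108 CPM with SNP50 and at 146, 139.7 and 135 CPM with MSNP. The HMSNP libraries were far below every other library, and the MSNP libraries above every other one. Its log2 fold change was -0.80 ± 0.0687 with HMSNP (edgeR adjusted p = 5.96e-06) and 0.32 ± 0.0681 with MSNP (edgeR adjusted p = 0.00250).

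Yars1 (ENSMUSG00000028811, chromosome 4, 129082752 to 129114906, forward strand), the tyrosine enzyme, was at 154, 157 and 166 CPM in the controls and at 106, 107 and 106 CPM with HMSNP. It was at 145, 145 and 141 CPM with SNP100, at 151, 142 and 139 CPM with SNP50 and at 196, 199 and 197 CPM with MSNP. Every library of both nonporous groups was also below the lowest control, although neither group was called. The log2 fold change was -0.58 ± 0.0554 with HMSNP (edgeR adjusted p = 1.71e-05) and 0.31 ± 0.0552 with MSNP (edgeR adjusted p = 0.000585).

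Nars1 (ENSMUSG00000024587), the asparagine enzyme, had the same order of groups. It was at 437, 472 and 448 CPM in the controls and at 302, 315 and 297 CPM with HMSNP. With SNP100 it was at 405, 405 and 409 CPM, with SNP50 at 411, 389 and 382 CPM, and with MSNP at 595, 584 and 576 CPM. As for Yars1, the nonporous libraries lay below the lowest control without a call. The log2 fold change was -0.57 ± 0.0550 with HMSNP (edgeR adjusted p = 1.79e-05) and 0.37 ± 0.0548 with MSNP (edgeR adjusted p = 0.000114).

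For the genes already described, the HMSNP change was -0.65 ± 0.0864 for Aars1 (edgeR adjusted p = 0.000381) and -0.59 ± 0.0620 for Sars1 (edgeR adjusted p = 3.99e-05). Rars1 changed by -0.19 ± 0.0612 and was not called (edgeR adjusted p = 0.0841). Eprs1 and Wars1 had fitted changes of 0.08 ± 0.108 and 0.01 ± 0.0577. The remaining decreases were those of Mars1, the methionine enzyme (-0.41 ± 0.0715), Gars1 (-0.38 ± 0.0569) and Tars1, the threonine enzyme (-0.31 ± 0.0570). The call of Tars1 was lost without HMSNP replicate 1, and its change lay between -0.35 and -0.25 over all omissions of 1 library.

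**Figure D3:**
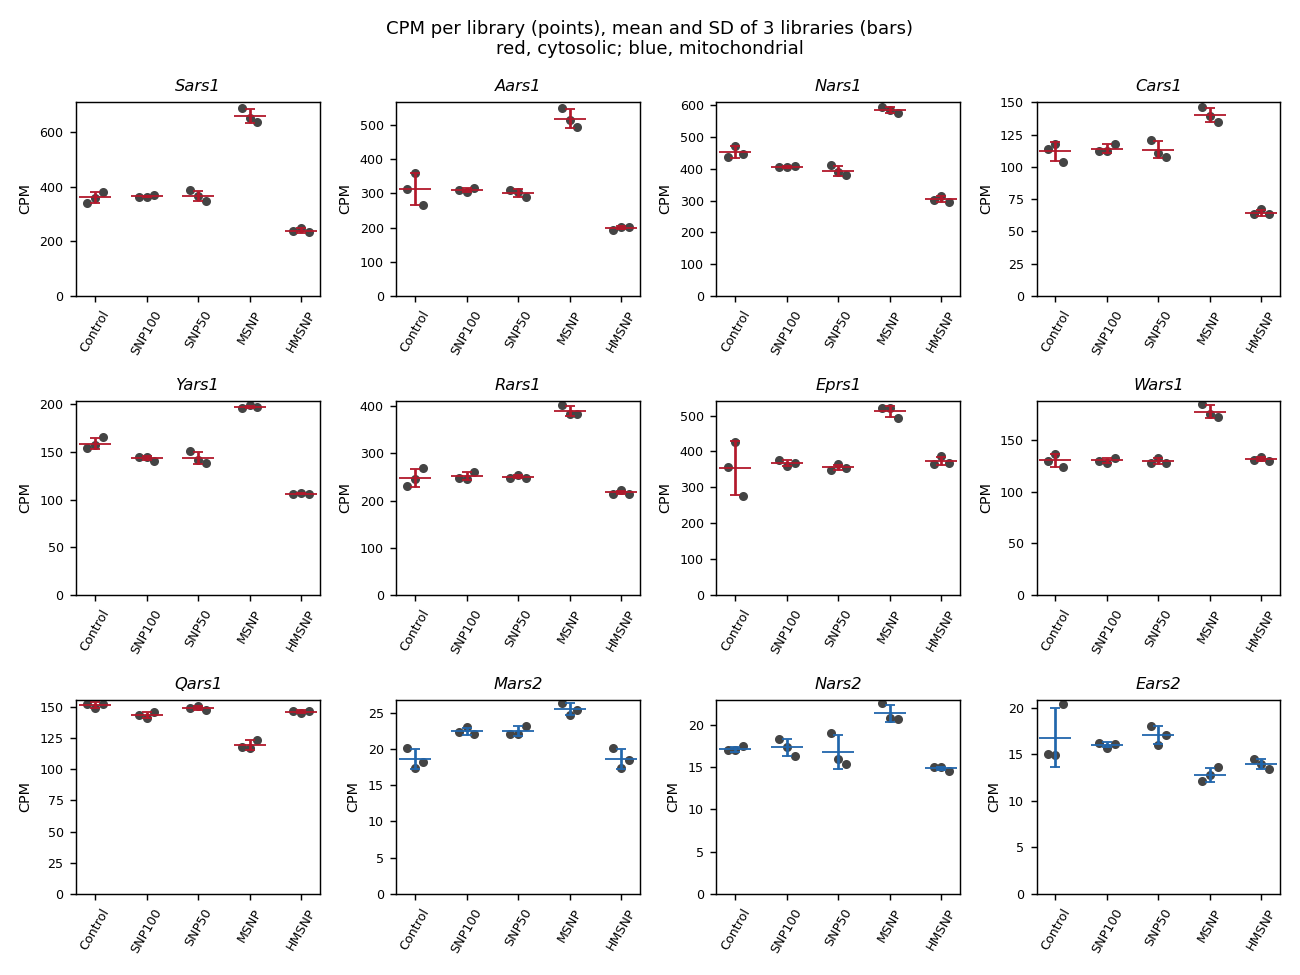
CPM (vertical axis, from 0) in each library (points) of the 5 groups (horizontal axis) for 9 cytosolic genes (red) and 3 mitochondrial genes (blue), with a bar at the mean and error bars of 1 SD over 3 libraries. For Sars1, Aars1, Nars1, Cars1 and Yars1 the MSNP points lie above and the HMSNP points below those of every other group, Rars1, Eprs1 and Wars1 stand out with MSNP, and Qars1 is lowest with MSNP.

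The direct comparison of the 2 porous particles, which uses no control library, showed the clearest difference. HMSNP-treated cells had 14 of 21 cytosolic members lower and 1 higher (Qars1) than MSNP-treated cells, while 11.0% of all genes were called lower and 9.22% higher. The class median was -0.46, against 0 for all genes. In 19 cytosolic members all HMSNP libraries lay below all MSNP libraries, in 1 all lay above, and in 1 (Kars1) they overlapped, while 23.7% of all genes lay wholly below and 21.6% wholly above. Fitting these 6 libraries alone gave 17 lower and 1 higher, beside 20.4% and 20.5% of all genes. Leaving out Control replicate 3, which enters through the shared estimate of the spread, gave the same counts, beside 18.4% and 15.5%. The call of Iars1 (-0.49 ± 0.158) was lost when any of 12 of the 15 libraries was left out, with values from -0.54 to -0.45. The call of Farsb (-0.20 ± 0.0626) was lost for 6 of the 15, with values from -0.22 to -0.17.

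The largest differences were those of Sars1 at -1.46 ± 0.0630 (edgeR adjusted p = 3.27e-10), which is a level of 0.364 times that with MSNP. Aars1 followed at -1.38 ± 0.0875 (edgeR adjusted p = 1.66e-08). Cars1 differed by -1.12 ± 0.0690 (edgeR adjusted p = 1.23e-08), Nars1 by -0.94 ± 0.0553 (edgeR adjusted p = 7.11e-09) and Yars1 by -0.89 ± 0.0556 (edgeR adjusted p = 1.41e-08). The values of each library, given above, do not overlap for any of these genes. The 6 cytosolic members without a call, among them Kars1, Vars1, Hars1 and Farsa, differed by -0.19 to -0.01.

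Of the cytosolic members, 7 were called in all 3 comparisons, higher with MSNP, lower with HMSNP and lower with HMSNP than with MSNP. These were Aars1, Cars1, Gars1, Nars1, Sars1, Tars1 and Yars1. With the transcript-length offset described below for Mars2, Cars1, whose canonical transcript has 6749 bases, changed by 0.10 with MSNP and was not called there (edgeR adjusted p = 0.502) or against SNP100, while its calls with HMSNP stayed. The comparisons with the controls share those libraries, so the values are given side by side and not as independent results. The comparison of HMSNP with MSNP comes from the same fit, so its direction in these 7 genes follows from the comparisons with the controls. The share of all genes with this joint pattern was not computed. Of the 5 genes whose promoter held the element, 4 were among these 7. The other, Iars1, was called lower with HMSNP than with MSNP alone, a call lost when any of 12 of the 15 libraries was left out. Nars1, Sars1 and Yars1 had no match to these letters in the window searched. The 7 genes, out of 21 cytosolic members, were picked from these same data. Whether the element goes with the changes was not tested.

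Where MSNP was set against SNP100, the nonporous particle of the same nominal size but a lower dose (50 against 200 µg/mL), 12 cytosolic members were higher and 1 lower, and 10.4% of all genes were called higher and 7.53% lower. The class median was 0.29, against -0.03 for all genes. The 12 genes were those called against the controls, and the lower one was again Qars1 (-0.26 ± 0.0520). Sars1 differed by 0.85 ± 0.0622 (edgeR adjusted p = 1.03e-07), Aars1 by 0.74 ± 0.0864 (edgeR adjusted p = 1.44e-05), Rars1 by 0.64 ± 0.0614 (edgeR adjusted p = 2.18e-06) and Nars1 by 0.53 ± 0.0549 (edgeR adjusted p = 4.93e-06). In these 4 genes the highest SNP100 library was at 368, 315, 261 and 409 CPM, and the lowest MSNP library at 638, 494, 384 and 576 CPM. The call of Lars1 (0.28 ± 0.0861) was lost when any of 12 of the 15 libraries was left out, with values from 0.26 to 0.30, and that of Tars1 (0.22 ± 0.0569) for 4 of the 15, with values from 0.20 to 0.24.

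Members of the multisynthetase complex and free cytosolic enzymes were then described apart. The complex was represented by 9 members (Eprs1, Iars1, Kars1, Lars1, Mars1, Qars1, Rars1, Aimp1 and Aimp2). Of these, 3 rose and 1 fell with MSNP, with a median log2 fold change of 0.01, and 0 rose and 1 fell with HMSNP, with a median of -0.19. Of the 12 members outside the complex, 9 rose and 0 fell with MSNP, with a median of 0.31, and 0 rose and 7 fell with HMSNP, with a median of -0.34. Between HMSNP and MSNP, 5 of 9 complex members were lower and 1 higher (median -0.38), and 9 of 12 of the others were lower and 0 higher (median -0.62). The MSNP counts without Control replicate 3 were 3 and 1 in the complex and 10 and 0 outside it, and the HMSNP counts were 0 and 3 and 0 and 7. Beside these stand the shares and medians of all genes given above for each comparison, namely 11.8% higher and 11.0% lower with MSNP (median -0.05), 2.46% and 2.70% with HMSNP (-0.04), and 9.22% and 11.0% between HMSNP and MSNP (0). The difference between these subgroups was not tested.

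The mitochondrial class had few calls in the fit of all libraries. With MSNP 2 of 16 members rose and 1 fell, beside 11.8% and 11.0% of all genes, and the median without Lars2 was -0.07. With HMSNP 0 of 16 members were called by edgeR against the controls, beside 2.46% higher and 2.70% lower of all genes. At an unadjusted p under 0.05, 7 passed, a count without the share of all genes beside it. DESeq2 called 1 (Lars2), beside 4.64% higher and 5.16% lower of all genes. The edgeR median without Lars2 was -0.09. In 7 of 16, Lars2 among them, all HMSNP libraries lay below all controls, as they did in 12.0% of all genes. In 0 of 16 they all lay above. Between HMSNP and MSNP 0 were higher and 2 lower (9.22% and 11.0% of all genes). Between MSNP and SNP100 1 was higher and 0 lower (10.4% and 7.53% of all genes). The counts of calls depended on the controls. Without Control replicate 2 they were 4 higher and 5 lower with MSNP and 1 higher and 3 lower with HMSNP, while of all genes 16.4% were then called higher and 16.8% lower with MSNP, and 13.3% and 11.9% with HMSNP. Without Control replicate 3 they were 2 and 4 with MSNP and 0 and 1 with HMSNP. The shares of all genes were then 16.3% and 13.2%, and 4.47% and 4.20%. That omission also gave 0 higher and 5 lower for HMSNP against MSNP, and 4 higher and 1 lower for MSNP against SNP100. Of all genes, 15.5% and 18.4% were then called for HMSNP against MSNP, and 18.2% and 14.8% for MSNP against SNP100. The 6 libraries of a comparison alone gave 1 higher and 0 lower for MSNP (7.37% and 5.61% of all genes). They gave 2 and 6 for HMSNP against MSNP (20.5% and 20.4%), and 5 and 1 for MSNP against SNP100 (21.9% and 19.0%). With the length offset, 1 of 16 was higher and 5 lower with HMSNP, beside 5.26% and 5.06% of all genes. The class median, Lars2 included, was -0.24. The cytosolic class then had 1 member higher and 10 lower, with a median of -0.21.

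Mars2 (ENSMUSG00000046994, chromosome 1, 55276336 to 55287629, forward strand) charges the methionine tRNA of mitochondria. It was at 20.1, 17.4 and 18.2 CPM in the controls and at 26.3, 24.7 and 25.4 CPM with MSNP, a log2 fold change of 0.46 ± 0.0750 (edgeR adjusted p = 0.000308). It was at 22.3, 23 and 22 CPM with SNP100 and at 22, 22 and 23.2 CPM with SNP50, above all controls, and at 20.1, 17.3 and 18.4 CPM with HMSNP, overlapping the controls. The difference between HMSNP and MSNP was -0.45 ± 0.0748 (edgeR adjusted p = 0.000344).

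Nars2 (ENSMUSG00000018995, chromosome 7, 96600689 to 96717097, forward strand), the mitochondrial asparagine enzyme, was at 17, 17 and 17.5 CPM in the controls and at 22.6, 20.9 and 20.7 CPM with MSNP. It was at 18.4, 17.4 and 16.3 CPM with SNP100, at 19.1, 16 and 15.4 CPM with SNP50 and at 15, 15 and 14.6 CPM with HMSNP. The MSNP libraries were above and the HMSNP libraries below all others. The change was 0.32 ± 0.0835 with MSNP (edgeR adjusted p = 0.0113) and -0.53 ± 0.0837 from MSNP to HMSNP (edgeR adjusted p = 0.000250). Against SNP100 the MSNP difference was 0.30 ± 0.0833, and its call was lost when any of 3 of the 15 libraries was left out, with values from 0.26 to 0.35.

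Both genes have long canonical transcripts, of 11294 bases for Mars2 and 6933 bases for Nars2. After an offset had been fitted to take transcript length out of every library, their MSNP changes against the controls were 0.11 for Mars2 and 0.08 for Nars2, and neither was called. Ears2 (ENSMUSG00000030871, chromosome 7, 121635056 to 121666864, reverse strand), the mitochondrial glutamate enzyme, was the member that fell with MSNP.

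Ears2 was at 15, 14.9 and 20.4 CPM in the controls and at 12.1, 12.7 and 13.6 CPM with MSNP, a log2 fold change of -0.39 ± 0.108 (edgeR adjusted p = 0.0166). It was at 16.2, 15.7 and 16.1 CPM with SNP100, at 18, 16 and 17.1 CPM with SNP50 and at 14.5, 13.9 and 13.4 CPM with HMSNP. All porous-particle libraries were below the lowest control, and Control replicate 3 was the highest library of all. The MSNP change was -0.21 without Control replicate 3 and was still called, and the call was lost without MSNP replicate 1 (-0.33) or MSNP replicate 2 (-0.37).

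For each porous particle, the 3 cytosolic enzymes that moved most are set beside their mitochondrial partners. This choice was made from the cytosolic fold changes. Sars1 changed by 0.87 and Sars2 by -0.07 with MSNP, Aars1 by 0.73 and Aars2 by -0.01, and Rars1 by 0.65 and Rars2 by 0.01. With HMSNP, Cars1 changed by -0.80 and Cars2 by -0.03, Sars1 by -0.59 and Sars2 by -0.03, and Aars1 by -0.65 and Aars2 by -0.20. For asparagine both enzymes were higher with MSNP and lower with HMSNP than with MSNP. In some other pairs the mitochondrial enzyme had the larger fitted change. With MSNP, Mars1 changed by -0.03 and Mars2 by 0.46, Hars1 by 0.04 and Hars2 by -0.26, and Iars1 by 0.28 and Iars2 by 0.30. A difference between a cytosolic enzyme and its mitochondrial partner was not tested.

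Across the 21 cytosolic genes, the change from SNP100 to MSNP and the change from the controls to HMSNP, which share no library, had a Pearson r of -0.353 and a Spearman rho of -0.264. For the 15 mitochondrial genes without Lars2 the values were 0.259 and 0.205. These describe genes of the same libraries, which are not independent replicates.

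Lars2 (ENSMUSG00000035202, chromosome 9, 123195952 to 123291731, forward strand), the mitochondrial leucine enzyme, was set apart after its values were seen. It was at 1494, 77.4 and 80.4 CPM in the controls, at 141, 335 and 95 CPM with SNP100 and at 151, 126 and 112 CPM with SNP50. With MSNP it was at 87.7, 171 and 96.1 CPM and with HMSNP at 69.6, 68.9 and 66.7 CPM. Control replicate 1 was thus far above every other library. Against all controls the fitted log2 fold change was -1.53 with SNP100, -2.08 with SNP50, -2.22 with MSNP and -3.01 with HMSNP, with no call by edgeR. DESeq2 called Lars2 lower with MSNP and HMSNP, and so did edgeR without Control replicate 2 or 3. Without Control replicate 1 it was 1.29, 0.74, 0.61 and -0.18, again with no call, so the direction turned for 3 of the 4 groups.

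The level of Lars2 moved with that of the ribosomal RNA gene Rn18s-rs5, which was also picked after its values were seen. Rn18s-rs5 was at 19451 CPM in Control replicate 1 and between 421 and 5141 CPM in the other libraries. The same 7 libraries were the highest for both genes, with at least 112 CPM of Lars2 and at least 1854 CPM of Rn18s-rs5, against at most 96.1 and 1246 CPM in the other 8 libraries. Of the mitochondrial ribosomal RNAs, mt-Rnr1 was at 185 CPM in Control replicate 1 and between 41.6 and 152 CPM elsewhere, and mt-Rnr2 was at 464 CPM and between 187 and 591 CPM. The part of ribosomal RNA in the Lars2 counts was not tested.

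**Figure D4:**
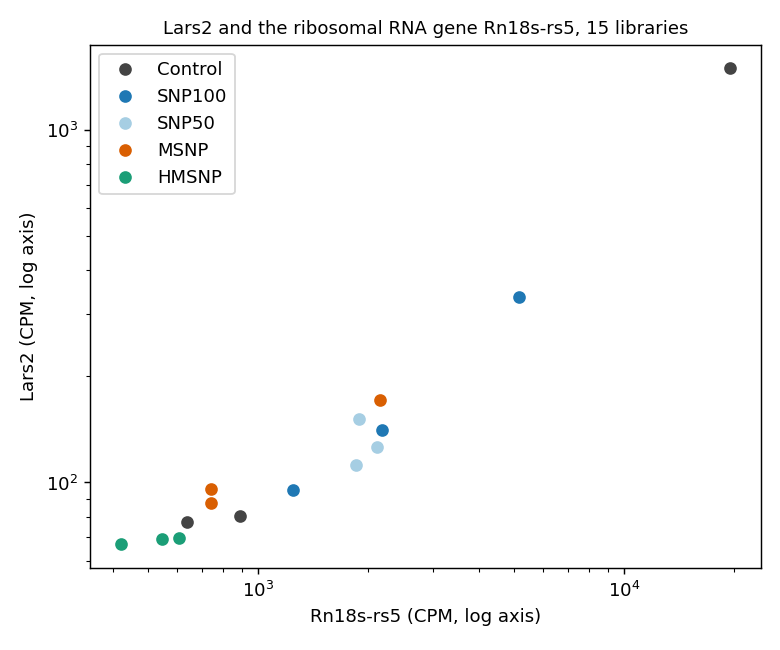
Lars2 (vertical axis, CPM, log scale) against the ribosomal RNA gene Rn18s-rs5 (horizontal axis, CPM, log scale) in the 15 libraries, coloured by group. Control replicate 1 lies at the top right, at 1494 and 19451 CPM, and the 3 HMSNP-treated libraries lie at the bottom left.

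The other targets of Atf4 were examined with a list of 31 genes that holds no synthetase and of which 30 were tested. It covers amino acid synthesis and transport and the stress response. With MSNP 14 of 30 rose and 2 fell, with a median log2 fold change of 0.28, and with HMSNP 1 rose and 22 fell, with a median of -0.78. Between HMSNP and MSNP 0 were higher and 28 lower (median -1.14), and between MSNP and SNP100 17 were higher and 0 lower (median 0.47). Of all genes, 11.8% were higher and 11.0% lower with MSNP (median -0.05), and 2.46% and 2.70% with HMSNP (median -0.04). The shares were 9.22% and 11.0% for HMSNP against MSNP (median 0), and 10.4% and 7.53% for MSNP against SNP100 (median -0.03). The nonporous groups had 3 listed genes higher and 3 lower for SNP100 (median -0.16) and 2 higher and 7 lower for SNP50 (median -0.23). Of all genes, 0.509% and 0.403% were called for SNP100 and 0.454% and 0.958% for SNP50. Without Control replicate 3 the listed counts were 3 and 11 for SNP100 and 4 and 16 for SNP50. The shares of all genes were then 2.84% and 2.32%, and 9.63% and 9.30%. The same omission gave counts of 19 and 2 with MSNP and 1 and 24 with HMSNP. With the 6 libraries of a comparison alone they were 11 and 0 and 1 and 11. Of all genes, the omission gave 16.3% and 13.2% with MSNP and 4.47% and 4.20% with HMSNP. The 6 libraries alone gave 7.37% and 5.61%, and 0.0970% and 0.342%.

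Atf4 itself was at 269.9, 276 and 350.1 CPM in the controls, at 418, 399 and 396 CPM with MSNP and at 160.4, 159 and 164 CPM with HMSNP. It was at 271, 277 and 285 CPM with SNP100 and at 281, 252 and 249 CPM with SNP50, which overlap the controls. The log2 fold change was 0.44 ± 0.0870 with MSNP (edgeR adjusted p = 0.00162), -0.89 ± 0.0876 with HMSNP (edgeR adjusted p = 2.21e-05) and -1.33 ± 0.0884 from MSNP to HMSNP (edgeR adjusted p = 2.86e-08). Atf4 was thus highest with MSNP and lowest with HMSNP, as were Sars1, Aars1, Cars1, Nars1 and Yars1.

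Ddit3, which encodes the stress factor CHOP, was at 9.56, 9.28 and 10.3 CPM in the controls, at 53.2, 48.7 and 51.6 CPM with MSNP and at 5.91, 5.60 and 6.42 CPM with HMSNP. It was at 14.6, 15.6 and 15.5 CPM with SNP100 and at 17.2, 13.3 and 14 CPM with SNP50, and both groups were called higher (0.65 ± 0.0947 and 0.61 ± 0.0953). Its change was 2.39 ± 0.0960 with MSNP and -0.70 ± 0.0986 with HMSNP (edgeR adjusted p = 1.38e-10 and 0.000646).

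Asns, the asparagine synthetase that makes the amino acid and does not charge tRNA, was at 181, 193 and 213 CPM in the controls, at 260.1, 243 and 246 CPM with MSNP and at 97.3, 109 and 96.9 CPM with HMSNP. It was at 171, 165 and 169 CPM with SNP100 and at 162, 158 and 147 CPM with SNP50. All libraries of the nonporous groups lay below the controls, and SNP50 was called lower (-0.33 ± 0.0731, edgeR adjusted p = 0.0403). The change was 0.35 ± 0.0730 with MSNP (edgeR adjusted p = 0.00217) and -0.95 ± 0.0737 with HMSNP (edgeR adjusted p = 1.71e-06).

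The largest members of that list moved much further than any synthetase that was called. Atf3, a stress transcription factor, changed by 2.48 ± 0.0672 with MSNP (edgeR adjusted p = 2.63e-12) and was the single listed gene that rose with HMSNP, by 0.86 ± 0.0648. Trib3, a pseudokinase that restrains the pathway, was at 20.1 ± 1.88 CPM (SD, n = 3) in the controls, 50.6 ± 4.22 CPM with MSNP and 3.07 ± 0.311 CPM with HMSNP. Chac1, which breaks down glutathione, was at 7.26 ± 0.353 CPM in the controls, 11.4 ± 0.483 CPM with MSNP and 0.909 ± 0.228 CPM with HMSNP. The listed genes that fell with MSNP were Ddit4 (-0.32 ± 0.0830) and Nupr1 (-0.40 ± 0.116). Nupr1 was at 35.5, 37.5 and 52.4 CPM in the controls and at 33.1, 30.3 and 31.8 CPM with MSNP, with Control replicate 3 the highest library.

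Of 14 genes of eIF2 signalling (Atf4, the eIF2 kinases and their regulators, eIF2 alpha and the eIF2B subunits), 3 rose and 0 fell with MSNP (median 0.03) and 0 rose and 1 fell with HMSNP (median -0.01). The increases were those of Atf4, of Impact, an inhibitor of the amino acid sensing kinase Gcn2 (1.33 ± 0.112), and of Eif2ak3, which encodes the kinase PERK (0.31 ± 0.104). The decrease with HMSNP was that of Atf4. Counts without Control replicate 3 were 4 and 1 with MSNP and 2 and 2 with HMSNP. Of all genes, 16.3% were then higher and 13.2% lower with MSNP, and 4.47% and 4.20% with HMSNP. With all libraries these shares were 11.8% and 11.0%, and 2.46% and 2.70%.

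**Figure D5:**
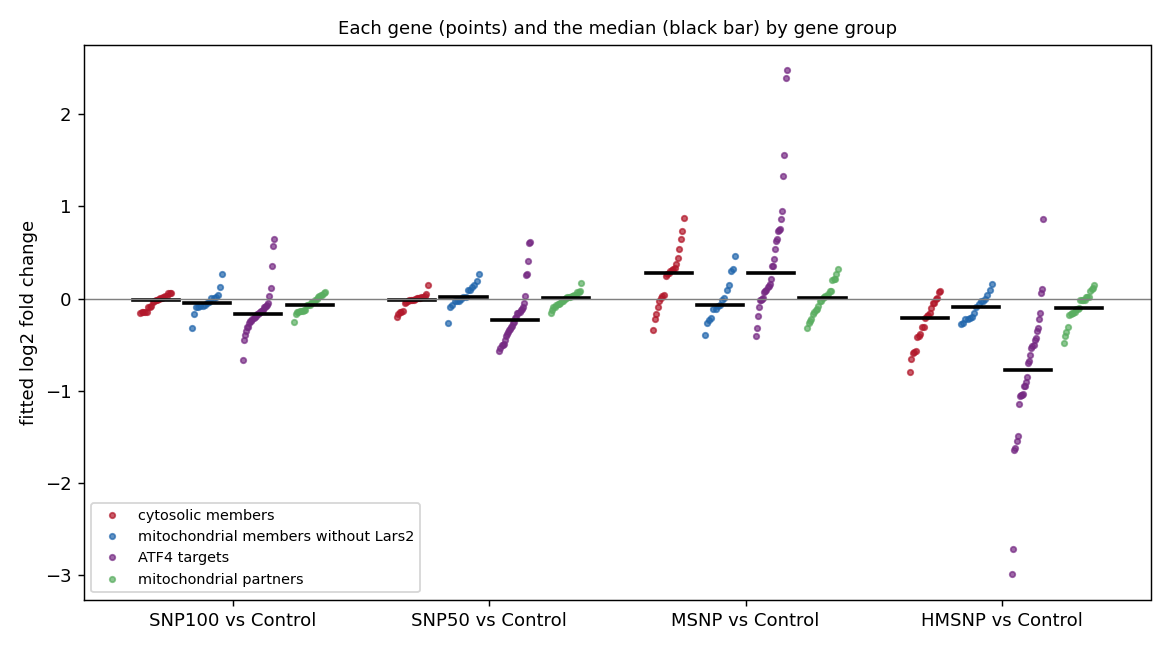
Fitted log2 fold change against the nontreated controls (vertical axis) of each gene (points) and the median (black bar) for 4 gene groups in each treated group (horizontal axis). For MSNP the medians of the cytosolic members and of the Atf4 targets are both 0.28, for HMSNP they are -0.21 and -0.78, and those of the mitochondrial members without Lars2 and of the mitochondrial partners stay between -0.10 and 0.02 in all groups.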

How the data were processed

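Poly(A) RNA from 15 libraries of RAW 264.7 cells was sequenced. Per the submitters' processing notes, the tools were cutadapt 1.16, STAR 2.7.9a and featureCounts 1.6.3 with the genome build GRCm39, and the authors deposited unnormalized whole-number counts per gene and library. The annotation and strand setting of the counting are not given in the sources used here. Groups came from the sample labels, and doses and diameters from the paper's methods. Of 57186 identifiers, 56630 matched GENCODE vM39, which gave symbols, positions and canonical transcript lengths. The members and gene lists were chosen with earlier results of these data known.

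A summed count of 10 or more was required, which left 19839 genes. These were fitted in 1 model of all 15 libraries with TMM scaling by edgeR 4.0.16 (R 4.3.3). The quasi-likelihood test was used, p-values were adjusted after Benjamini and Hochberg, and genes under 0.05 were called. Standard errors were computed from the fold change and its F statistic, so they carry the spread shared by all 15 libraries. The scripts were tested on simulated data. A promoter window and a listed gene are not reported here.

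Values of every library are given for the 5 cytosolic and 3 mitochondrial members with the largest absolute change among those called with MSNP, with HMSNP or between them, for any member called with a nonporous particle, and for Atf4, Ddit3 and Asns. From each gene list, at most the 2 called genes with the smallest p in each direction are named beside these, and further names were chosen after the values were seen. Sharing of replicate numbers was checked by correlating deviations from group means. Of 30 pairs with the same number 12 had an r above 0.1 (range -0.579 to 0.627). Pairs with different numbers ranged from -0.806 to 0.768. Deviations from a group mean depend on each other within a group, so this cannot decide whether libraries of the same number belong together. The alternatives were DESeq2 1.42.0, RLE normalization, the filterByExpr filter, no filter, the 6 libraries of a comparison alone, the replicate block, an offset against transcript length, and leaving out each library.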

Additional observations from a re-analysis of the deposited data

How the results depend on the processing

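No alternative turned the direction of a named call made in the fit of all libraries. Lars2, which that fit did not call, turned in direction without Control replicate 1 for SNP100, SNP50 and MSNP. Called mitochondrial members with MSNP were 2 higher and 1 lower in the fit of all libraries, and there were more lower than higher ones with DESeq2, with the length offset and without Control replicate 2 or 3. Of the 12 cytosolic increases with MSNP, 5 were called in the fit of the 6 libraries alone, and of the 8 decreases with HMSNP 1 was called. That fit has fewer libraries to estimate the spread, which is wider among the controls than elsewhere. Mitochondrial counts under that fit were 1 higher and 0 lower for MSNP against Control (7.37% and 5.61% of all genes). They were 2 and 6 for HMSNP against MSNP (20.5% and 20.4%), and 5 and 1 for MSNP against SNP100 (21.9% and 19.0%).

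DESeq2 gave, among cytosolic members, 1 lower for SNP100 and 2 lower for SNP50, and among mitochondrial members 1 higher and 1 lower for SNP100, 1 higher for SNP50, 3 lower for MSNP, 1 lower for HMSNP, and 1 lower for MSNP against SNP100. RLE normalization and filterByExpr also gave 1 mitochondrial member lower for MSNP against SNP100, and filterByExpr gave 1 cytosolic member lower for SNP50. With no filter, 2 mitochondrial members were lower with MSNP and 1 with HMSNP, beside 7.77% and 2.04% of all genes.

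With the length offset, the mitochondrial counts were 1 lower for SNP100, 1 lower for SNP50, 1 higher and 3 lower for MSNP, 1 higher and 5 lower for HMSNP, and 1 lower for MSNP against SNP100. In the cytosolic class 1 member was lower with SNP50 and 1 higher with HMSNP. Of all genes, the length offset called 1.35% higher and 1.36% lower for SNP100, and 1.73% and 3.02% for SNP50. The shares were 14.4% and 14.3% for MSNP, 5.26% and 5.06% for HMSNP, and 13.3% and 11.4% for MSNP against SNP100. The length offset without Control replicate 3 was chosen after seeing the data. It gave 2 cytosolic members and 1 mitochondrial member lower for SNP100. For SNP50 it gave 1 cytosolic member higher and 5 lower, and 4 mitochondrial members higher and 2 lower. Cytosolic counts were 2 lower for MSNP and 1 higher for HMSNP. Mitochondrial counts were 4 lower for MSNP, 2 lower for HMSNP, 1 higher and 4 lower for HMSNP against MSNP, and 3 higher and 3 lower for MSNP against SNP100.

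Leaving out 1 library at a time gave these ranges. For SNP100, 0 to 1 cytosolic members were lower and 0 to 1 mitochondrial higher. For SNP50, 0 to 1 cytosolic members were higher and 0 to 3 lower, with 0 to 2 mitochondrial higher and 0 to 1 lower. For MSNP, 1 to 2 cytosolic members were lower, with 2 to 4 mitochondrial higher and 0 to 5 lower. For HMSNP, 0 to 1 cytosolic members were higher, with 0 to 1 mitochondrial higher and 0 to 3 lower. For HMSNP against MSNP 2 to 5 mitochondrial members were lower, and for MSNP against SNP100 0 to 4 were higher and 0 to 1 lower. The highest of these came without Control replicate 2 or 3. Without Control replicate 2, 16.4% of all genes were called higher and 16.8% lower with MSNP, and 13.3% and 11.9% with HMSNP. Without Control replicate 3, the shares were 2.84% and 2.32% for SNP100, and 9.63% and 9.30% for SNP50. They were 16.3% and 13.2% for MSNP, and 4.47% and 4.20% for HMSNP. For HMSNP against MSNP they were 15.5% and 18.4%, and for MSNP against SNP100 18.2% and 14.8%.

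The replicate block gave the same counts of called members as the fit without it in all comparisons. With MSNP, for example, 12 cytosolic members were higher and 1 lower, beside 11.8% and 10.4% of all genes. With the length offset and the replicate block together, 1 cytosolic member was lower for SNP50 and 1 higher for HMSNP, and the mitochondrial counts were 1 higher and 3 lower for MSNP, 1 lower for HMSNP, 4 lower for HMSNP against MSNP and 1 lower for MSNP against SNP100. The lowest count of any member was 271. The median SE with HMSNP was 0.0626 for cytosolic and 0.0892 for mitochondrial members, and an effect of depth on the calls was not tested. Where a cause is not stated, the cause was not tested.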

Other observations

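The genes of proteins that work beside the cytosolic synthetases were listed too. The list held 11 genes, namely those named for elongation factors (Eef1e1 among them), the tRNA exporter Xpot, editing factors and Tars3. Tars3 is itself named as a synthetase but is not among the 37 members. Of the 11 genes, 1 rose and 1 fell with MSNP and 0 were called with HMSNP by edgeR. Between HMSNP and MSNP 1 was higher and 1 lower. The median log2 fold change was -0.12 with MSNP and -0.21 with HMSNP, where that of the cytosolic synthetases was also -0.21, and a difference between the lists was not tested. Eef2k, the kinase that halts elongation factor eEF2, was at 19.5, 19.3 and 16.2 CPM in the controls and at 35.5, 35.2 and 33.6 CPM with MSNP (0.92 ± 0.0808, edgeR adjusted p = 5.22e-07), and at 18.9, 18.8 and 17.6 CPM with HMSNP. Eef1b2, a subunit of the factor that recycles eEF1A, was called lower with MSNP (-0.50 ± 0.167, edgeR adjusted p = 0.0433). It was at 551, 527 and 975 CPM in the controls and at 493, 475 and 484 CPM with MSNP. With HMSNP it was at 486, 489 and 478 CPM without a call, and Control replicate 3 was the highest of all libraries. In mitochondria, 3 of 23 partner genes rose and 1 fell with MSNP (median 0.01), with HMSNP 0 were called by edgeR (median -0.10), and 1 was higher and 1 lower between HMSNP and MSNP (median -0.10). Gfm1, a mitochondrial elongation factor, rose by 0.32 ± 0.0677 (edgeR adjusted p = 0.00290), and Prorp, the nuclease that trims mitochondrial tRNAs, fell (-0.32 ± 0.0734, edgeR adjusted p = 0.00491). Without Control replicate 3 the mitochondrial partner counts were 6 and 1 with MSNP, 0 and 0 with HMSNP and 1 and 9 for HMSNP against MSNP. The cytosolic ones were 2 and 2, 0 and 2, and 1 and 5. Of all genes, 16.3% and 13.2%, 4.47% and 4.20%, and 15.5% and 18.4% were then called higher and lower. With all libraries these shares were 11.8% and 11.0%, 2.46% and 2.70%, and 9.22% and 11.0%.

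Wars1 is induced by interferon-gamma in macrophages, so other genes with that response were listed beside it. Of 14 genes 13 were tested. With MSNP, where Wars1 rose by 0.44, 2 rose and 4 fell (median -0.42), and between HMSNP and MSNP, where Wars1 was lower, 5 were higher and 2 lower (median 0.41). With HMSNP 1 rose and 0 fell. Some listed genes were near the floor, with control means of 0.203 CPM for Gbp2, 0.132 CPM for Gbp5 and 0.346 CPM for Ciita. The medians therefore rest in part on genes with few reads. Cxcl10, an interferon-induced chemokine, was at 2.92, 2.75 and 3.70 CPM in the controls and at 0.430, 0.378 and 0.534 CPM with MSNP (-2.80 ± 0.203, edgeR adjusted p = 6.36e-08). Cd274, which encodes PD-L1, and Socs1, an inhibitor of the pathway, rose with MSNP, by 1.96 ± 0.170 and 1.29 ± 0.284. Leaving out Control replicate 3 gave 2 higher and 5 lower with MSNP and 2 higher and 0 lower with HMSNP. Of all genes, 16.3% and 13.2% were then called with MSNP and 4.47% and 4.20% with HMSNP. With all libraries these shares were 11.8% and 11.0%, and 2.46% and 2.70%, and for HMSNP against MSNP 9.22% and 11.0%.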
